A study of Gallus gallus with 12 samples.

Results

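The 10 genes described here carry the canonical WNT signal and its R-spondin amplifier: CTNNB1, LEF1, TCF7L1, TCF7L2, AXIN2, NKD1, RSPO1, RSPO3, LGR4 and LGR5. They were chosen by name, as the entries of the protein coding count table whose gene name is one of these symbols, and make up 10 of its 17485 genes, or 10 of the 24121 genes in the full table. RNA was sequenced from the forming Müllerian duct of Hy-Line Brown chicken embryos (Gallus gallus), not separated by sex, with tissue of several embryos pooled in each library and 3 libraries for each of 4 tissues. E4.5-Ant was the anterior urogenital system at embryonic day (E) 4.5, which held mesonephric kidney, some midline mesentery and the Müllerian ridge where the duct begins. E5.5 duct and E6.5 duct were ducts at days 5.5 and 6.5, dissected away from the kidney by the study and taken whole, so that each library mixes the epithelial and mesenchymal layers. E4.5-Post was the rest of the urogenital system at day 4.5, further back, and it is the control here. It held kidney and mesentery, but the ridge has not formed there. By the study's methods both E4.5 tissues came from the same embryos, and the main fit does not pair them. A difference between a duct and E4.5-Post is therefore one of age and of tissue, which cannot be told apart, and in such bulk tissue fewer cells of a type and less RNA per cell cannot be told apart either. One of the 3 samples titled E5.5 duct carries a cell type entry naming posterior kidney. It was taken as duct from its title, and its column in the count table could not be told from the other 2 of that tissue.

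In the canonical WNT pathway, secreted WNT ligands bind a receptor complex at the cell surface and stop the breakdown of β-catenin, which then enters the nucleus and binds factors of the TCF/LEF family at target genes. AXIN2 and NKD1 are such targets in many tissues and feed back on the pathway as inhibitors. R-spondins are secreted proteins that bind LGR4, LGR5 and LGR6 and so keep membrane ubiquitin ligases from removing WNT receptors. In the mouse, WNT and β-catenin signals are needed for the Müllerian duct to form and to take on its regional identity.

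Depth was similar across the 12 libraries, with 24235353 to 31373783 counts each. In E4.5-Ant library 2, 42.1% of counts fell on rRNA genes, against 0.199% to 1.95% in the other libraries, and it was left out of every comparison, which leaves 2 E4.5-Ant libraries. E5.5 duct library 2 stood apart from the other E5.5 libraries (chi-square per degree of freedom of 29.1 and 35.6, against 9.13 between the other pair), so the results that rest on it are given with and without it. Mesonephric nephron markers (7 of 8 listed were in the table, none at 0) summed to 1315 to 1551 CPM (counts scaled to a common library size) in E5.5 duct and 880 to 1272 CPM in E6.5 duct, against 2524 to 3055 CPM in E4.5-Post, and 5 of 7 passed the test as lower at each age, while SLC34A1, a phosphate transporter, was called higher at E6.5 (1.16, FDR 0.000239). CUBN was not called in either duct (379 and 290 CPM on average, against 337 CPM). The duct libraries thus still held RNA of nephron markers. Of the 6 genes listed as duct labels, 4 were called higher in E6.5 duct than in E4.5-Post, WNT4 and EMX2, AMHR2 and OSR1, the last 3 averaging 179, 66.1 and 73.0 CPM in E6.5 duct, against 113, 34.9 and 21.9 CPM in E4.5-Post. LHX1 was called lower (93.0 against 165 CPM) and PAX2 was not called (321 against 363 CPM), and the mesonephros expresses both. At E5.5, 2 of the 6 were called higher than in E4.5-Post and 1 lower. In E4.5-Ant 0 were called higher and 4 lower: LHX1, PAX2, EMX2 and WNT4. The 6 labels summed to 405 to 455 CPM there, against 699 to 742 CPM in E4.5-Post.

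Markers of other cell types moved in the ducts too, and their part in the results below was not tested. The 3 Wolffian duct markers (none at 0) summed to 119 to 124 CPM in E4.5-Ant, 212 to 223 CPM in E5.5 duct and 168 to 192 CPM in E6.5 duct, against 137 to 148 CPM in E4.5-Post. The duct libraries did not overlap those of E4.5-Post, in the same direction as most of the 10 genes. Of the 3, RET, a receptor tyrosine kinase (1.41), and WNT9B, a WNT ligand (0.60), were called higher in E5.5 duct, and RET also in E6.5 duct (0.59) and E4.5-Ant (1.95), where WNT9B was called lower (46.1 CPM on average, against 92.2 CPM in E4.5-Post). GATA3, the remaining marker, was also called lower in E4.5-Ant (-0.59, FDR 7.43e-05) and was not called in either duct against E4.5-Post. Skeletal muscle markers (7 of 7 tested) summed to 42.8 to 67.4 CPM in E5.5 duct and 34.6 to 38.0 CPM in E6.5 duct, against 37.2 to 56.5 CPM in E4.5-Post, with 2 called higher at E5.5 and 5 lower at E6.5. The 67.4 CPM was that of E5.5 duct library 2, and libraries 1 and 3 stood at 43.3 and 42.8 CPM, within the E4.5-Post range. Neural crest and neuron markers summed higher in both ducts (76.7 to 88.7 CPM, against 58.8 to 70.5 CPM in E4.5-Post). Of these 5 genes, 1 was called higher at each age, and STMN2 was called lower at E6.5 (-0.94). Cartilage and sclerotome markers also summed higher (254 to 393 CPM, against 204 to 246 CPM), mostly from COL2A1 (375 CPM on average in E6.5 duct, against 197 CPM). Of these 5 genes, 1 was called higher at each age, while 2 were called lower at E5.5 and 3 at E6.5. Red blood cell markers summed lower (542 to 867 CPM in the ducts, against 1963 to 2547 CPM in E4.5-Post), but the members went opposite ways. Of 4 tested, 3 were called lower at E5.5 and 2 at E6.5, while HBBA was called higher at both ages (3.08 and 6.44). Endothelial markers summed to 619 to 668 CPM in E5.5 duct and 543 to 591 CPM in E6.5 duct, against 647 to 703 CPM in E4.5-Post. Of 5 tested, PECAM1 was called higher (0.72 and 0.68) and KDR lower (-0.73 and -0.87) at both ages.

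All 10 genes passed the filter on low counts, as did 16603 genes in all, and levels are given as CPM after TMM scaling of the libraries. A gene was called when the false discovery rate (FDR) of edgeR's quasi-likelihood test, adjusted over all 16603 genes, was at most 0.05 and its log2 fold change (Log2FC) reached the fold limit, a 1.5-fold difference in either direction. In E4.5-Ant against E4.5-Post, 1 of the 10 genes was called higher, RSPO1, beside 7.7% of all tested genes called higher, and 0 were called lower, beside 3.05%. In E5.5 duct against E4.5-Post, 6 of 10 were called higher (background 14.3%) and 0 lower (6.26%). In E6.5 duct against E4.5-Post, 7 of 10 were called higher (background 16.5%) and 0 lower (8.78%). The median Log2FC of the 10 genes was 0.03, 0.72 and 1.16 over these 3 comparisons in turn, while that of all tested genes was -0.02, 0.01 and 0.01. The 10 genes were chosen with earlier results of these data known, so counts above the background are not independent evidence.

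**Figure D1:**
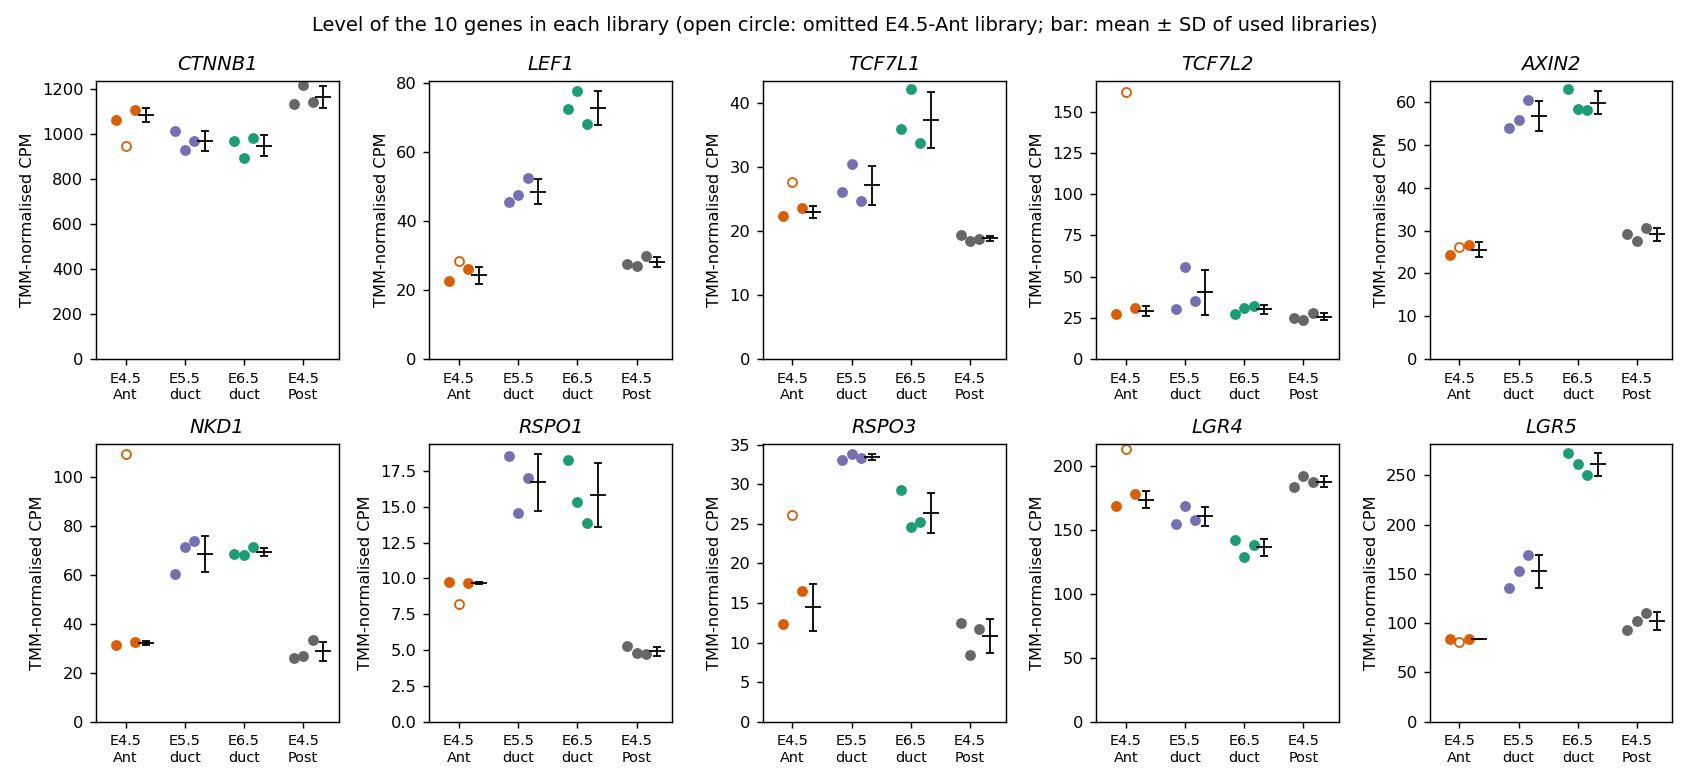
TMM-normalised CPM (y axis, from 0) of each of the 10 genes in each library of E4.5-Ant, E5.5 duct, E6.5 duct and E4.5-Post (x axis). Points are libraries, the open circle is the omitted E4.5-Ant library 2, and the black bar is the mean ± SD of the libraries used (n = 2 in E4.5-Ant and n = 3 elsewhere). LEF1 and LGR5 stepped up at each duct age, AXIN2, NKD1 and RSPO1 were high in both ducts alike, and CTNNB1 and LGR4 were highest in E4.5-Post among the libraries used.

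CTNNB1 encodes β-catenin, which both transmits the WNT signal and anchors cadherins at cell junctions. It lies on chromosome 2 of GRCg6a, the build of the count table, at 43386047 to 43407736. It measured 1064 and 1107 CPM in E4.5-Ant, 1017, 929 and 969 CPM in E5.5 duct and 972, 895 and 982 CPM in E6.5 duct, against 1134, 1221 and 1142 CPM in E4.5-Post. Every duct library was below every E4.5 library used, but by little: across all 11 libraries the highest was 1.36 times the lowest. The Log2FC was -0.26 (SE 0.06, FDR 0.0021) in E5.5 duct and -0.30 (SE 0.06, FDR 0.000736) in E6.5 duct against E4.5-Post, both short of the fold limit, so CTNNB1 was not called in any of the 6 comparisons. Between the ducts, E6.5 against E5.5, the difference was -0.03 with a 95% interval of -0.16 to 0.10. The gene shares its locus with ULK4 on the opposite strand, and the counts were made by strand.

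Of the 3 TCF/LEF genes among the 10, the nuclear partners of β-catenin, LEF1 differed most from E4.5-Post in both ducts. LEF1, mostly an activator when β-catenin is bound, lies on chromosome 4 at 37872539 to 37926897. Its level was 22.5 and 26.0 CPM in E4.5-Ant, 45.4, 47.7 and 52.4 CPM in E5.5 duct and 72.5, 77.8 and 68.0 CPM in E6.5 duct, against 27.6, 27.1 and 29.9 CPM in E4.5-Post. The 3 E6.5 libraries stood above the 3 E5.5 libraries, and these above all E4.5 libraries, with no overlap. Against E4.5-Post the Log2FC was 0.78 (SE 0.08, FDR 1.29e-06) in E5.5 duct and 1.37 (SE 0.08, FDR 2.98e-09) in E6.5 duct, or 1.72-fold and 2.58-fold. E4.5-Ant did not differ from E4.5-Post beyond the limits (-0.22, SE 0.09, FDR 0.0813).

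LEF1 also rose between the ducts, with a Log2FC of 0.59 in E6.5 against E5.5 duct (SE 0.07, FDR 0.000103), where 2 of the 10 genes were called higher beside 4.11% of all genes and 0 lower beside 3.45%. That value lies at the fold limit itself. It came out at 0.58 under 6 of the other ways of processing, with the FDR still at most 0.00194, and at 0.54 to 0.65 when each library was left out in turn, so the call at this step turns on a very small difference while the size of the change varied little.

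TCF7L1, which acts mostly as a repressor at WNT targets until β-catenin relieves it, lies on chromosome 22 at 5292024 to 5308220. It was called higher in E6.5 duct. It measured 22.3 and 23.6 CPM in E4.5-Ant, 26.2, 30.6 and 24.7 CPM in E5.5 duct and 36.1, 42.3 and 33.9 CPM in E6.5 duct, against 19.4, 18.5 and 18.8 CPM in E4.5-Post. The tissues did not overlap, in the order E6.5 duct, E5.5 duct, E4.5-Ant and E4.5-Post. Only the differences of E6.5 duct from the E4.5 tissues passed both limits: 0.99 in E6.5 duct against E4.5-Post (SE 0.09, FDR 6.22e-07) and 0.70 in E6.5 duct against E4.5-Ant (SE 0.10, FDR 9.33e-05). E5.5 duct against E4.5-Post gave 0.52 (SE 0.09, FDR 0.000308) and E6.5 against E5.5 duct 0.46 (SE 0.09, FDR 0.00219), both under the fold limit, although the first was called without E5.5 duct library 3 (0.59).

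TCF7L2, the family member best known from intestine and liver, lies on chromosome 6 at 28005780 to 28178462 and is the longest of the 10 genes, at 172.683 kb. Its level was 27.2 and 31.1 CPM in E4.5-Ant, 30.2, 55.8 and 35.4 CPM in E5.5 duct and 27.3, 30.8 and 32.1 CPM in E6.5 duct, against 25.0, 23.9 and 28.0 CPM in E4.5-Post. One value stands out, the 55.8 CPM of E5.5 duct library 2, while the remaining libraries lay between 23.9 and 35.4 CPM. TCF7L2 was called higher in E5.5 duct against E4.5-Post, with a Log2FC of 0.66 (SE 0.17, FDR 0.00434), but the call was lost without that library (0.35, FDR 0.00953) and with the omitted E4.5-Ant library put back (0.64, FDR 0.352). E6.5 duct against E4.5-Post gave 0.23 with a 95% interval of -0.14 to 0.60.

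**Figure D2:**
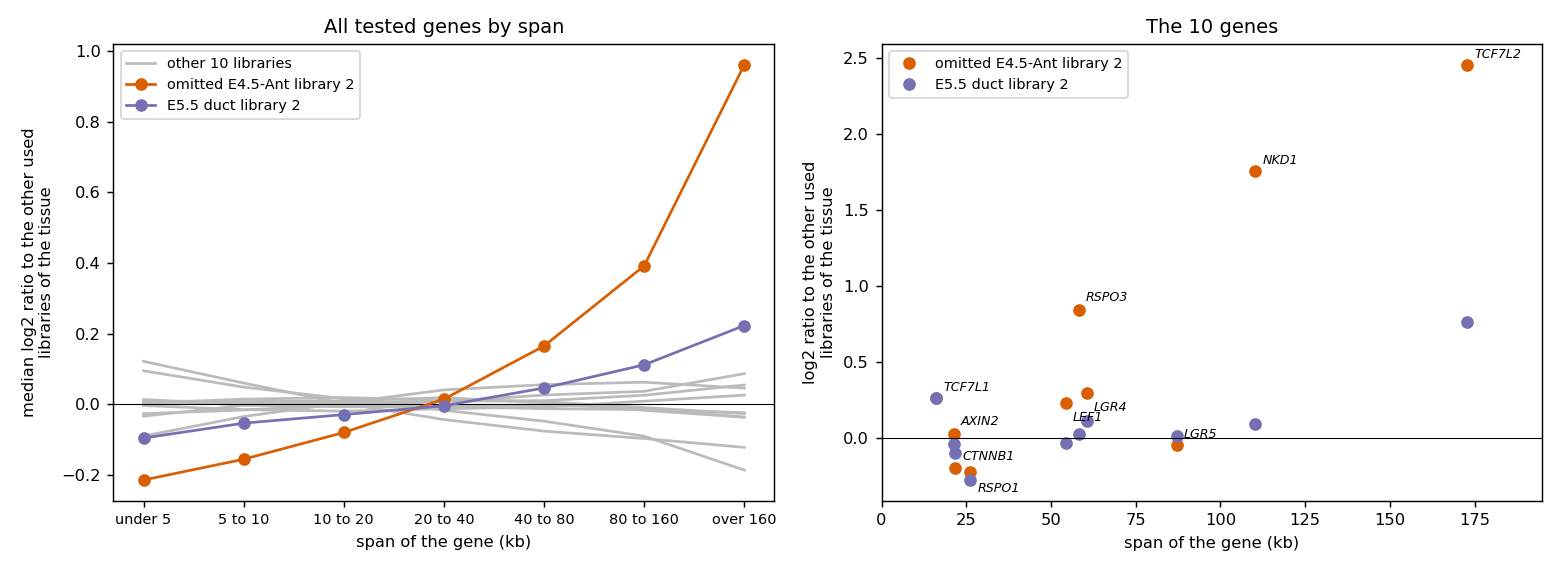
Left, the median log2 ratio of a library to the other used libraries of its tissue (y axis) for all 16603 tested genes grouped by genomic span in kb (x axis); grey lines are the other 10 libraries. Right, the same ratio for each of the 10 genes against its span in the 2 libraries that stood apart. In omitted E4.5-Ant library 2 the median ran between -0.21 for genes under 5 kb and 0.96 for genes over 160 kb, and in E5.5 duct library 2 between -0.10 and 0.22.

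Both libraries that stood apart held more counts on long genes, as the plot by gene span shows, and counting took in whole genes with their introns. Other libraries trended with span too, the opposite way. The median log2 ratio ran from 0.10 under 5 kb to -0.19 over 160 kb in E5.5 duct library 1, and from 0.12 to -0.12 in E6.5 duct library 2. TCF7L2 was 2.45 above the other E4.5-Ant libraries on the log2 scale in the omitted library, higher than 99.6% of tested genes, and 0.76 above the other E5.5 libraries in E5.5 duct library 2, higher than 99.5%. With an offset for gene span fitted to each library, an alternative added after seeing the data, the E5.5 difference of TCF7L2 was 0.37 (FDR 0.0315), below the fold limit. The part of intronic reads in these values was not tested.

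The LEF1 to TCF7L2 ratio of counts was higher in E6.5 duct than in E5.5 duct, and the LEF1 to TCF7L1 ratio overlapped between them. Per TCF7L2 count there were 0.831 ± 0.007 LEF1 counts in E4.5-Ant (SD, n = 2), 1.28 ± 0.37 in E5.5 duct and 2.43 ± 0.28 in the E6.5 duct, against 1.10 ± 0.03 in E4.5-Post (SD, n = 3 each). All E6.5 libraries lay above all others, whereas E5.5 duct overlapped E4.5-Post because its library 2 gave 0.854. Per TCF7L1 count there were 1.05 ± 0.07 LEF1 counts in E4.5-Ant, 1.80 ± 0.29 in E5.5 duct and 1.95 ± 0.10 in the E6.5 duct, against 1.49 ± 0.09 in E4.5-Post, and here E5.5 duct overlapped both E6.5 duct and E4.5-Post. These ratios are not corrected for gene length, so only their differences between tissues are informative, and they were not tested.

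**Figure D3:**
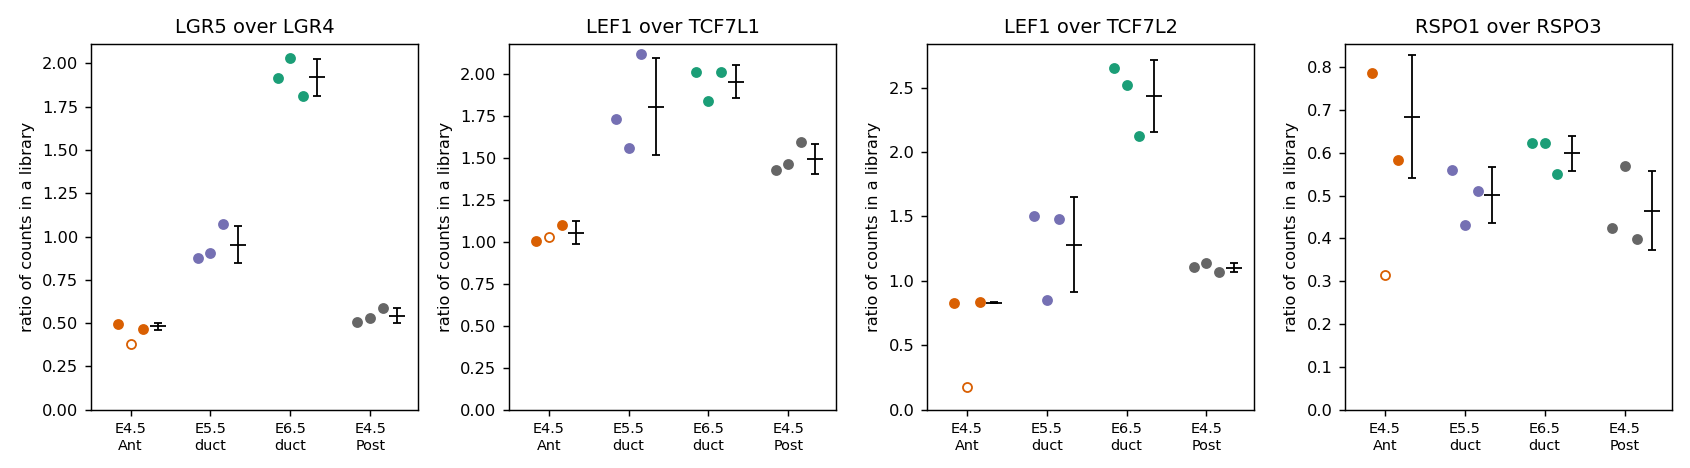
Ratio of the counts of 2 genes within each library (y axis, from 0) in E4.5-Ant, E5.5 duct, E6.5 duct and E4.5-Post (x axis); points, open circle and bars as in the plot of levels. The LGR5 to LGR4 ratio was between 1.81 and 2.03 in E6.5 duct, above every other library, and the RSPO1 to RSPO3 ratio overlapped between the ducts and E4.5-Post.

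The feedback inhibitors AXIN2 and NKD1 were both called higher in each duct against E4.5-Post and stayed level between the 2 duct ages. AXIN2, a scaffold of the complex that degrades β-catenin, lies on chromosome 18 at 7613207 to 7634458. It measured 24.4 and 26.8 CPM in E4.5-Ant, 54.0, 55.8 and 60.6 CPM in E5.5 duct and 63.0, 58.5 and 58.3 CPM in E6.5 duct, against 29.2, 27.5 and 30.6 CPM in E4.5-Post. The lowest duct library was 54.0 CPM and the highest E4.5 library 30.6 CPM, so ducts and E4.5 tissues were widely separated. The Log2FC against E4.5-Post was 0.96 (SE 0.07, FDR 4.53e-08) in E5.5 duct and 1.04 (SE 0.07, FDR 1.08e-08) in E6.5 duct.

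Between the ducts, E6.5 against E5.5, AXIN2 differed by 0.08 with a 95% interval of -0.06 to 0.22, which leaves out changes of the size seen for LEF1 over the same day. E4.5-Ant gave -0.19 against E4.5-Post (SE 0.08, FDR 0.0819), so the anterior tissue with the Müllerian ridge held no more AXIN2 than the posterior control.

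NKD1, which binds Dishevelled and dampens the signal upstream of β-catenin, lies on chromosome 11 at 6236469 to 6346713. It measured 31.4 and 32.6 CPM in E4.5-Ant, 60.3, 71.4 and 74.0 CPM in E5.5 duct and 68.6, 68.1 and 71.3 CPM in E6.5 duct, against 26.0, 26.9 and 33.3 CPM in E4.5-Post. The ducts again stood clear of both E4.5 tissues, which overlapped each other. Against E4.5-Post the Log2FC was 1.25 (SE 0.09, FDR 7.91e-08) in E5.5 duct and 1.27 (SE 0.09, FDR 3.71e-08) in E6.5 duct, and E6.5 against E5.5 duct gave 0.02 with a 95% interval of -0.17 to 0.20. In the omitted E4.5-Ant library NKD1, a gene of 110.245 kb, stood at 109 CPM, above every duct library.

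**Figure D4:**
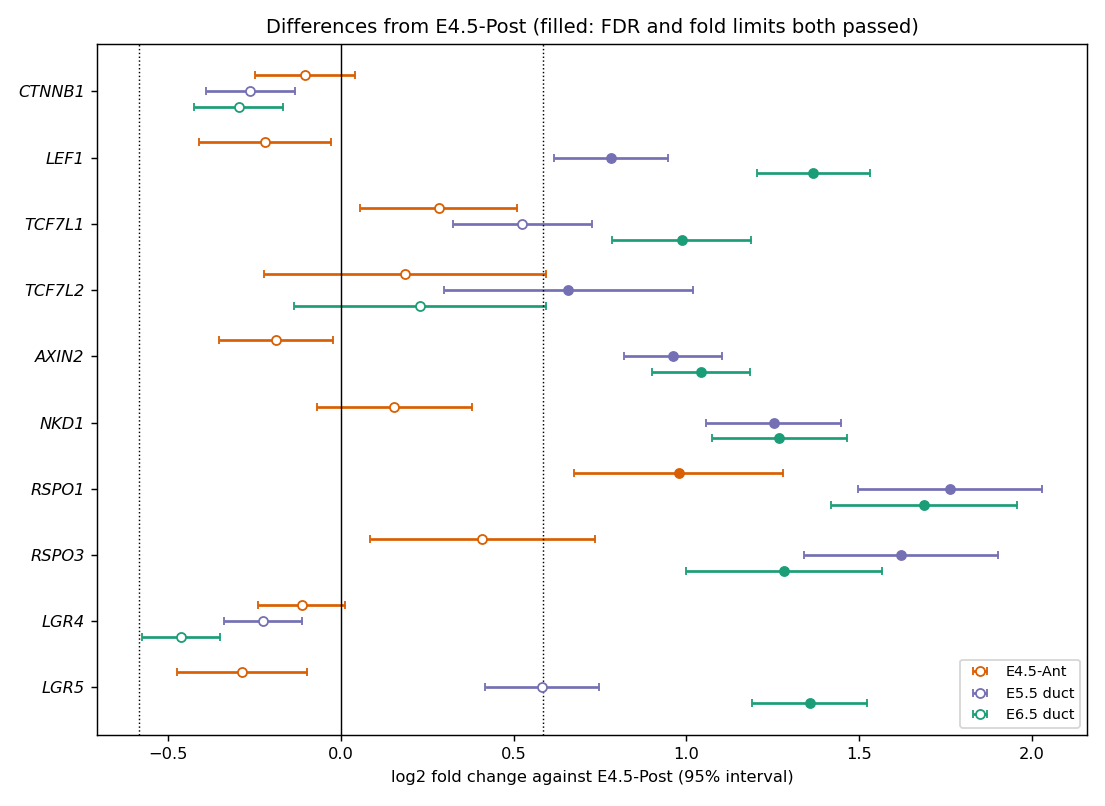
Log2FC against E4.5-Post (x axis) with its 95% interval for each of the 10 genes (y axis) in E4.5-Ant, E5.5 duct and E6.5 duct, from edgeR's quasi-likelihood fit of 11 libraries; filled points passed both limits and dotted lines mark the fold limit. RSPO1 was the one gene called in all 3 tissues, at 0.98, 1.76 and 1.69, and LGR5 in E5.5 duct sat at the limit with 0.58.

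RSPO1 and RSPO3, the R-spondin ligands among the 10, were called higher in both ducts, and at E5.5 they had the largest Log2FC of the 10 genes against E4.5-Post. RSPO1 lies on chromosome 23 at 3853072 to 3879301 and is known as a female sex-determining gene of the gonad in mammals. It measured 9.73 and 9.64 CPM in E4.5-Ant, 18.5, 14.6 and 17.01 CPM in E5.5 duct and 18.3, 15.3 and 13.9 CPM in E6.5 duct, against 5.27, 4.78 and 4.69 CPM in E4.5-Post. The libraries fell at separate levels, with the ducts highest, E4.5-Ant between and E4.5-Post lowest, and the ducts overlapping each other. The Log2FC against E4.5-Post was 0.98 (SE 0.14, FDR 0.000146) in E4.5-Ant, 1.76 (SE 0.12, FDR 5.82e-08) in E5.5 duct and 1.69 (SE 0.13, FDR 4.94e-08) in E6.5 duct, the last 2 being 3.40-fold and 3.22-fold.

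RSPO1 was thus the one gene of the 10 called higher in the anterior tissue at the time the duct begins. TCF7L1 also stood above every E4.5-Post library there but was not called (0.28, FDR 0.0598). In E4.5-Ant the smooth muscle markers were also higher, all 4 of 4 called and summing to 551 to 708 CPM, against 170 to 178 CPM in E4.5-Post. ACTA2 and TAGLN averaged 530 and 92.3 CPM there. Cartilage and sclerotome markers summed to 343 to 433 CPM, against 204 to 246 CPM, with 2 of 5 called higher. Neural crest and neuron markers summed to 91.1 to 95.8 CPM, against 58.8 to 70.5 CPM, also with 2 of 5 called higher. Endothelial markers summed to 772 to 883 CPM, against 647 to 703 CPM, with 0 of 5 called. Lower calls there were 3 of 7 skeletal muscle, 1 of 7 nephron and 1 of 4 tested gonad markers, besides the Wolffian duct markers and duct labels given above. The part of these cell types in the RSPO1 difference was not tested. In the ducts the smooth muscle markers summed to 196 to 262 CPM at E5.5 and 168 to 178 CPM at E6.5. Gonad markers summed to only 8.56 to 10.7 CPM in E4.5-Ant, 12.9 to 17.6 CPM in E5.5 duct and 22.8 to 28.6 CPM in E6.5 duct, against 12.2 to 14.8 CPM in E4.5-Post. The members went opposite ways. DMRT1 is a sex-determining factor of the bird gonad, but the study also names it among known genes of Müllerian duct formation. It averaged 10.2 ± 2.3 CPM in E5.5 duct and 18.1 ± 2.6 CPM in E6.5 duct, against 3.67 ± 0.06 CPM in E4.5-Post. DMRT1 was called higher at both ages (1.48 and 2.30) and lower in E4.5-Ant (-1.54, FDR 0.000407). NR5A1, a steroidogenic factor, averaged 0.16 ± 0.09 CPM in E6.5 duct, against 4.43 ± 1.04 CPM in E4.5-Post, and was called lower (-4.76; SD, n = 3 each). CYP17A1 was also called higher at E6.5 (0.67). FOXL2 and AMH were at or below 0.22 CPM on average in each tissue and did not pass the filter on low counts.

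RSPO3, which acts in vessel and placental development in the mouse, lies on chromosome 3 at 59341241 to 59399436. It measured 12.4 and 16.6 CPM in E4.5-Ant, 33.1, 33.8 and 33.3 CPM in E5.5 duct and 29.3, 24.6 and 25.2 CPM in E6.5 duct, against 12.4, 8.40 and 11.7 CPM in E4.5-Post. It peaked at E5.5, where its 3 libraries were within 1 CPM of each other and above every E6.5 library. Against E4.5-Post the Log2FC was 1.62 (SE 0.13, FDR 2.11e-07) in E5.5 duct and 1.28 (SE 0.13, FDR 1.45e-06) in E6.5 duct. The step between the ducts, E6.5 against E5.5, was -0.34 (SE 0.12, FDR 0.0541) and passed neither limit. LOC112532128, a protein coding gene, overlaps RSPO3 on the opposite strand.

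RSPO3 in E4.5-Ant against E4.5-Post gave 0.41 (SE 0.15, FDR 0.0576), and E4.5-Ant library 1 overlapped E4.5-Post. Without that library the difference was 0.61 and called (FDR 0.0272), and with the omitted library put back, where RSPO3 stood at 26.1 CPM, it was 0.73 and called (FDR 0.0259). It was 0.19 (FDR 0.505) without E4.5-Ant library 3 and 0.25 (FDR 0.188) without E4.5-Post library 2. Whether RSPO3 was higher in the anterior tissue at E4.5 therefore depends on the libraries kept. The ratio of RSPO1 to RSPO3 counts was 0.684 ± 0.144 in E4.5-Ant (SD, n = 2), 0.5003 ± 0.065 in E5.5 duct and 0.598 ± 0.042 in the E6.5 duct, against 0.464 ± 0.092 in E4.5-Post (SD, n = 3 each), with duct and E4.5-Post libraries overlapping.

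Of the R-spondin receptors LGR4 and LGR5, LGR5 was called higher in E6.5 duct and LGR4 was not called in any comparison. LGR5, known as a marker of epithelial stem cells in the mouse intestine and itself a WNT target there, lies on chromosome 1 at 36352053 to 36439081. It measured 83.6 and 83.6 CPM in E4.5-Ant, 136, 153 and 169 CPM in E5.5 duct and 273, 261 and 250 CPM in E6.5 duct, against 92.9, 102 and 111 CPM in E4.5-Post. The 4 tissues did not overlap, in the order E6.5 duct, E5.5 duct, E4.5-Post and E4.5-Ant. The Log2FC against E4.5-Post was 1.36 (SE 0.08, FDR 3.86e-09) in E6.5 duct, or 2.56-fold, and E6.5 against E5.5 duct gave 0.78 (SE 0.08, FDR 1.69e-05), the larger of the 2 calls at that step.

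In E5.5 duct LGR5 stood at 0.58 against E4.5-Post (SE 0.08, FDR 2.20e-05), just short of the fold limit, and it was called when E4.5-Post library 3 or E5.5 duct library 1 was left out (0.65 each). In E4.5-Ant it was -0.29 against E4.5-Post (SE 0.09, FDR 0.0252), below every control library though short of the fold limit. LGR5 was thus lowest in the anterior tissue at E4.5 and highest in the E6.5 duct, 3.13-fold apart (Log2FC 1.64, SE 0.09, FDR 7.59e-09).

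LGR4, the broadly expressed receptor of the family, lies on chromosome 5 at 3872956 to 3933478. It measured 169 and 178 CPM in E4.5-Ant, 155, 169 and 158 CPM in E5.5 duct and 142, 129 and 138 CPM in E6.5 duct, against 184, 192 and 188 CPM in E4.5-Post. E6.5 duct lay below all other libraries used, but the Log2FC of -0.46 against E4.5-Post (SE 0.05, FDR 3.79e-06) and of -0.24 against E5.5 duct (SE 0.05, FDR 0.00469) stayed under the fold limit. Nephron markers were lower in the same libraries, by the sums given above, and their part in the LGR4 and CTNNB1 differences was not tested.

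The receptor transcripts were also set against each other. Per LGR4 count there were 0.482 ± 0.019 LGR5 counts in E4.5-Ant (SD, n = 2), 0.952 ± 0.107 in E5.5 duct and 1.92 ± 0.11 in the E6.5 duct, against 0.543 ± 0.043 in E4.5-Post (SD, n = 3 each). No tissue overlapped another in this ratio, and being taken within a library it does not depend on the scaling.

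The ducts were also set against E4.5-Ant. In E5.5 duct against E4.5-Ant, 6 of 10 genes were called higher (background 7.8%) and 0 lower (5.22%). They included LGR5 (0.87, FDR 4.87e-06) and not TCF7L2 (0.47, FDR 0.0733), the reverse of the comparison with E4.5-Post. In E6.5 duct against E4.5-Ant, 7 of 10 were called higher (background 11.5%) and 0 lower (8.26%), the same 7 as against E4.5-Post. The ducts are shared with the comparisons above, so these calls are not separate evidence. The Log2FC in E6.5 duct against E4.5-Ant was 1.64 for LGR5, 1.59 for LEF1, 1.23 for AXIN2, 1.12 for NKD1, 0.87 for RSPO3, 0.71 for RSPO1 and 0.70 for TCF7L1. RSPO1 differed less here than against E4.5-Post, since its level in E4.5-Ant was 1.97-fold that of E4.5-Post. With the omitted library put back, NKD1 was not called in E5.5 duct against E4.5-Ant (0.26, FDR 0.656), and it was 0.27 (FDR 0.581) and RSPO3 0.53 (FDR 0.0640) in E6.5 duct against E4.5-Ant and neither was called.

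Over the 11 libraries the 10 genes followed a few courses. By Pearson correlation of log2 CPM, given as a description over libraries that share their tissue, LEF1 and LGR5 were alike at 0.984, AXIN2 and NKD1 at 0.969 and RSPO1 and RSPO3 at 0.931, while TCF7L1 and LGR4 ran opposite at -0.932. Among 11011 other named genes averaging at least 5 CPM, those closest to LEF1 were FOXE1 (0.994), ITM2C (0.992) and DHRS3 (0.991), and FOXE1 was also among the 3 closest to LGR5 (0.987), with NELL2 (0.991) and TMEM121 (0.985). FOXE1, a forkhead transcription factor, averaged 183 CPM in E6.5 duct and 49.6 CPM in E5.5 duct, against 10.7 CPM in E4.5-Post. Closest to AXIN2 were EDN3 (0.996), BCHE (0.995) and GJA1 (0.994), the last a gap junction protein, and closest to NKD1 were PDZD2, UNK and TIAM2 (0.990 to 0.991).

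The genes closest to RSPO1 were ADGRD1 (0.987), SPOCK1 (0.983) and MXD4 (0.982), and those closest to RSPO3 were LAMA4, a laminin chain (0.991), STOX1 (0.990) and PLD5 (0.989). CTNNB1 ran closest to BUB1B (0.976), GMPS (0.976) and BUB1 (0.974), of which BUB1B and BUB1 are mitotic checkpoint kinases. LGR4 ran closest to MAN2A1, PCNX1 and PPM1B (0.985 to 0.987) and TCF7L1 to CROCC, CSRNP2 and MAP7D1 (0.986 to 0.990). The closest to TCF7L2 were AUTS2 (0.969), ARID1B (0.952) and SPAG16 (0.931).

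The rest of the pathway was examined in 4 lists, with TCF7, RNF43 and ZNRF3 each standing in a pair of them. Of the genes that carry the signal between the receptor and β-catenin, 21 of 25 listed were tested: 0 were called in E4.5-Ant, 2 were higher and 0 lower in E5.5 duct, and 2 were higher and 0 lower in E6.5 duct, all against E4.5-Post, beside 14.3% and 16.5% of all genes called higher in the ducts. Their median Log2FC was 0.00 in E6.5 duct. The 2 genes were the same at both ages, DVL1, a Dishevelled scaffold (104 ± 3 CPM in E6.5 duct, against 67.1 ± 1.3 CPM in E4.5-Post, Log2FC 0.64, SE 0.05, FDR 7.12e-08), and APC2, a relative of the APC tumour suppressor (3.21 ± 0.26 CPM, against 0.955 ± 0.384 CPM, Log2FC 1.74, SE 0.23, FDR 1.81e-05; SD, n = 3 each).

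Of the nuclear partners of β-catenin, 21 of 25 were tested, and 0 were called in E4.5-Ant. In E5.5 duct 2 were higher (HIC1 and PYGO1) and 1 lower (NLK), and in E6.5 duct 3 were higher (HIC1, TCF7 and JUP) and 1 lower (NLK), beside 14.3% of all genes higher and 6.26% lower at E5.5 and 16.5% and 8.78% at E6.5. HIC1, a transcriptional repressor, averaged 144 ± 8 CPM in E6.5 duct, against 44.0 ± 1.5 CPM in E4.5-Post (Log2FC 1.72, SE 0.05, FDR 2.78e-11). TCF7, the remaining TCF/LEF gene, averaged 12.2 ± 1.3 CPM in E6.5 duct, against 5.62 ± 0.99 CPM in E4.5-Post (1.12, SE 0.19, FDR 0.000136). NLK, a kinase that can phosphorylate TCF/LEF factors, fell in both ducts, with 69.3 ± 1.5 CPM in E6.5 duct, against 125 ± 3 CPM in E4.5-Post (-0.85, SE 0.05, FDR 6.46e-09; SD, n = 3 each). JUP, at 0.59, lay at the fold limit, and the count of 3 higher was kept under 10 of 21 alternatives and was 2 under the others.

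Another list held genes described as WNT targets or feedback regulators in other tissues. Of 30 listed, 22 were tested: 5 were called higher and 1 lower in E4.5-Ant, 7 higher and 1 lower in E5.5 duct, and 7 higher and 2 lower in E6.5 duct, against E4.5-Post, beside 7.7%, 14.3% and 16.5% of all genes higher and 3.05%, 6.26% and 8.78% lower. Their median Log2FC was 0.07, 0.35 and 0.48. Without E5.5 duct library 2 or E4.5-Post library 1 the number higher in E5.5 duct was 5. In E4.5-Ant the 5 higher became 3 without E4.5-Ant library 3 or E4.5-Post library 1 or 2, and the 1 lower was lost under 8 of 21 alternatives, among them those without E4.5-Ant library 1, E4.5-Post library 3 or E5.5 duct library 1, and became 2 without E4.5-Ant library 3. The largest rises at E6.5 were in secreted or membrane inhibitors of the pathway. APCDD1, a membrane inhibitor, averaged 581 ± 11 CPM in E6.5 duct and 341 ± 61 CPM in E5.5 duct, against 67.2 ± 6.2 CPM in E4.5-Post, a Log2FC of 3.11 (SE 0.11, FDR 4.72e-11) at E6.5. WIF1, which binds WNT ligands, averaged 13.4 ± 0.7 CPM in E6.5 duct, against 1.99 ± 0.17 CPM in E4.5-Post (2.74, SE 0.17, FDR 8.17e-09; SD, n = 3 each).

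DKK1, an inhibitor that binds the LRP co-receptors, averaged 6.54 ± 1.80 CPM in E6.5 duct, against 1.08 ± 0.66 CPM in E4.5-Post (2.59, SE 0.32, FDR 8.49e-06), and SP5, a transcription factor, 4.74 ± 0.86 CPM against 1.46 ± 0.16 CPM (1.69, SE 0.21, FDR 7.87e-06; SD, n = 3 each). Not all listed genes rose. JAG1, a Notch ligand, fell to 47.8 ± 3.5 CPM in E6.5 duct, against 134 ± 14 CPM in E4.5-Post (-1.49, SE 0.09, FDR 3.81e-09; SD, n = 3 each).

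**Figure D5:**
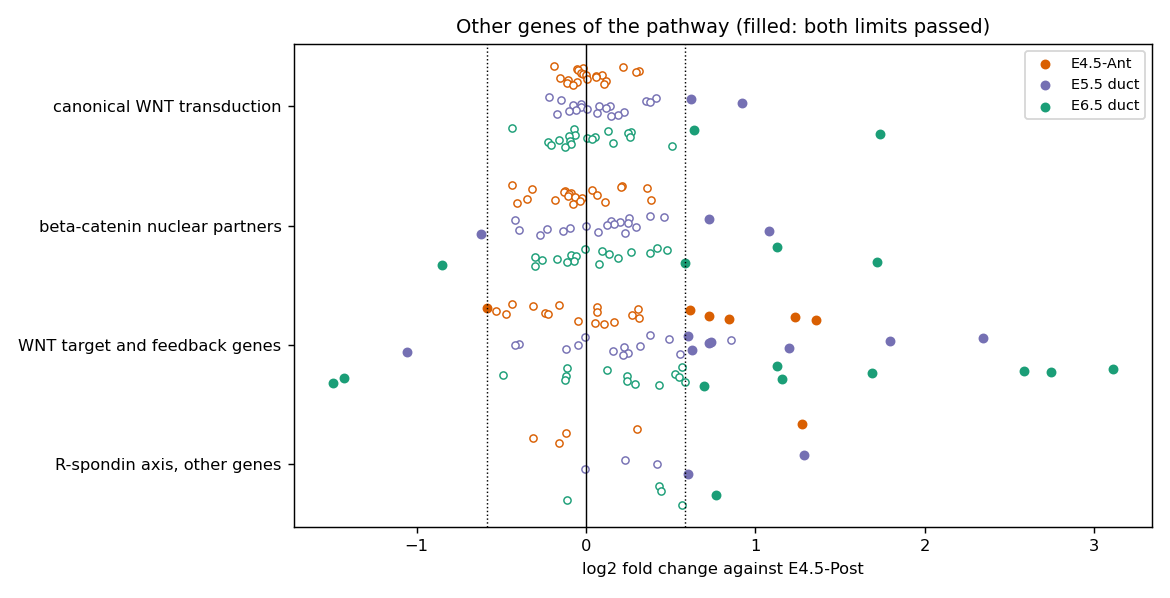
Log2FC against E4.5-Post (x axis) of the tested genes of 4 lists of the pathway (y axis) in E4.5-Ant, E5.5 duct and E6.5 duct. Each point is a gene, filled where it passed both limits, and dotted lines mark the fold limit. The transduction list lies close to 0 with 2 of 21 genes called in each duct, and the target and feedback list spreads between -1.49 and 3.11 in E6.5 duct.

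Of the other genes of the R-spondin axis, all 5 listed were tested. RSPO2, another ligand, was called higher in E4.5-Ant and E5.5 duct but not in E6.5 duct: it averaged 4.57 ± 1.21 CPM in E4.5-Ant (SD, n = 2), 4.59 ± 1.41 CPM in E5.5 duct and 2.55 ± 0.64 CPM in E6.5 duct, against 1.88 ± 0.20 CPM in E4.5-Post (SD, n = 3 each), with Log2FC of 1.27 (FDR 0.00312), 1.29 (FDR 0.000553) and 0.43 (FDR 0.176). LGR6, the remaining receptor, was called in E6.5 duct (2.36 ± 0.48 CPM, against 1.37 ± 0.30 CPM in E4.5-Post, Log2FC 0.77, FDR 0.00765). RNF43, a membrane ubiquitin ligase that R-spondins inhibit, was called in E5.5 duct at 0.60 and stood at 0.57 in E6.5 duct. Without E5.5 duct library 2 or E4.5-Post library 1, 1 gene of this list was called in E5.5 duct in place of 2, without E4.5-Ant library 3 none of it was called in E4.5-Ant, and without E4.5-Post library 2 or 3, 2 were called in E6.5 duct. With all 12 libraries, or with the gene span offset, 1 gene of the list was called in E5.5 duct, and with both 0 were. RSPO2 stood at 30.6 CPM in the omitted E4.5-Ant library. ZNRF3, the partner of RNF43, was not called, and RSPO4 was low, at 1.15 to 1.57 CPM on average, and not called.

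The genes lying beside the 10 on the chromosome were also examined. Of 20 adjacent genes, 10 on each side, 15 were tested and 2 were called higher in both ducts against E4.5-Post, beside 14.3% and 16.5% of all genes. RGS9, which starts 76910 bases past AXIN2 on the opposite strand, gave a Log2FC of 0.74 at E5.5 and 0.92 at E6.5, and the lncRNA LOC107055026, 38679 bases before RSPO1 on the same strand, gave 0.96 in each. CENPW, beyond RSPO3, was lower in E6.5 duct (-0.65). The genes nearest to LEF1, TCF7L1, TCF7L2, NKD1, LGR4 and LGR5 were not called against E4.5-Post, or held too few counts to be tested.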

How the data were processed

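RNA-seq libraries were made by the study with the TruSeq Stranded mRNA kit. The authors aligned reads with STAR through RNAsik and, per the file headers, counted them with featureCounts 1.6.2 (reverse stranded, whole genes with introns, RefSeq annotation of GRCg6a). They deposited raw counts per gene. The count columns name a tissue and a number, so libraries are known by tissue only.

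The full table of 24121 genes was filtered with filterByExpr, leaving 16603, and fitted with edgeR 4.0.16 (glmQLFit, glmQLFTest, TMM) in R 4.3.3 as one model of 4 tissues and 11 libraries. The study left out 1 E4.5-Ant library after quality control, and here the one with the highest rRNA share was left out. P-values were adjusted by Benjamini-Hochberg over all tested genes, and limits (FDR 0.05, Log2FC 0.585) were those of the study. SE is the size of the Log2FC over the root of F, and 95% intervals use the t quantile of the fit. CPM use TMM sizes, and the omitted library was scaled through the factors of all 12 libraries. Scripts were tested on simulated counts. Replicates are pools of embryos, so p-values measure the spread between pools.

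Alternatives were limma 3.58.1 with voom, DESeq2 1.42.0, other scalings, no filter, protein coding genes only, all 12 libraries, leaving out each library and a replicate block. Members and lists were chosen with earlier results of these data known. Other genes were named by rule: those of the lists called against E4.5-Post, with values for up to 6 a list by size at E6.5, the 3 genes closest in course to each member, and adjacent genes. TNFRSF19, CD44, TWIST1, BMP4, NOTUM and EPHB3 were also called in at least 1 comparison with E4.5-Post. One further gene of the target list, counted in the totals, is not reported here by name. Chromosome names were matched through RefSeq gene names. The promoter, transcript and protein sequences of the genes were not used here.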

Additional observations from a re-analysis of the deposited data

Results flagged for a closer look

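E4.5-Ant library 2, left out of the comparisons for its rRNA share of 42.1%, held 6 of the 10 genes above every E4.5-Post library. The share of all tested genes that did so was not taken, so this count is not a result about the 10 genes. TCF7L2 stood at 162 CPM, against 31.1 CPM in the higher of the other E4.5-Ant libraries and at most 28.0 CPM in E4.5-Post. NKD1 stood at 109 CPM, against at most 32.6 CPM in the other E4.5-Ant libraries and 33.3 CPM in E4.5-Post. RSPO3 stood at 26.1 CPM, against at most 16.6 and 12.4 CPM, and LGR4 at 213 CPM, against at most 178 and 192 CPM in the same tissues. TCF7L1 was at 27.7 CPM, against at most 23.6 CPM in the other E4.5-Ant libraries and 19.4 CPM in E4.5-Post. RSPO1 was at 8.23 CPM, below the other E4.5-Ant libraries (9.64 and 9.73 CPM) and above E4.5-Post (at most 5.27 CPM), as in the libraries used. The genes furthest above the other E4.5-Ant libraries, TCF7L2 and NKD1, were also the longest of the 10, at 172.683 and 110.245 kb. The order by length did not hold throughout. LGR5, at 87.029 kb, stood at -0.05 against the other E4.5-Ant libraries on the log2 scale, and RSPO3, at 58.196 kb, at 0.84. With all 12 libraries the Log2FC of TCF7L2 and NKD1 in E4.5-Ant against E4.5-Post was 1.49 and 0.98. With the gene span offset added, an alternative chosen after seeing the data, it was 0.94 and 0.63. Neither gene was called in either fit, and the cause of the high values was not tested.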

How the results depend on the processing

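Of 60 values (10 genes in 6 comparisons), 29 were called. Under 21 alternatives each, 23 of the 29 kept their call throughout, 27 kept it apart from the fits with all 12 libraries or a gene span offset, and 0 changed direction. The span offset was chosen after seeing the data. Of the 10 genes, 2 were called in E4.5-Ant against E4.5-Post with all 12 libraries, and also with these plus the offset, and 1 to 2 when each library was left out (2 without E4.5-Ant library 1). For E6.5 against E5.5 duct, 1 was called by DESeq2, with DESeq2 size factors in edgeR, by library size only, without the filter, with protein coding genes only and with all 12 libraries, and 1 to 2 with each library left out (1 without E5.5 duct library 2 or E6.5 duct library 2). Without E5.5 duct library 1 the 2 were LGR5 and, as lower, TCF7L2 (-0.60, FDR 0.00982), LEF1 standing at 0.54. Where 1 E4.5-Ant library remained, it was assumed to vary like the other tissues. Uncalled values that turned sign were those of TCF7L2 in E5.5 duct against E4.5-Ant (-0.85 with 12 libraries, -0.56 with the offset added) and in E6.5 duct against E4.5-Ant (-1.28 with 12 libraries, -0.79 with the offset added, -0.041 with the replicate block, -0.051 to 0.14 with each library left out). In E6.5 against E5.5 duct, leaving out each library gave -0.064 to 0.0077 for CTNNB1, -0.065 to 0.075 for NKD1 and -0.19 to 0.0087 for RSPO1. The causes were not tested.

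Over 15 same-number pairs of libraries the deviations from the tissue means correlated at -0.094 to 0.096, and 0 passed 0.1. The study took both E4.5 tissues from the same embryos, and this check cannot exclude a pairing of their libraries. Only 2 E4.5-Ant libraries were used, so their deviations mirror each other, and library numbers cannot be tied to samples. With the replicate block 0 calls of the 10 genes changed, and 1680, 3381, 4195, 2095, 3177 and 1207 genes were called in all over the 6 comparisons, in the order E4.5-Ant, E5.5 duct and E6.5 duct against E4.5-Post, E5.5 and E6.5 duct against E4.5-Ant, and E6.5 against E5.5 duct. Rescaling moved the median Log2FC of all genes by at most 0.040.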
